A study of Mus musculus with 2931 samples.

Results

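The cells described here are the Car4- capillary endothelial cells of mouse lung at postnatal day 7 (P7), in mice kept in hyperoxia and in mice labelled normal, called normal air below. They were chosen by the authors' subtype labels Early Car4- capillaries and Late Car4- capillaries, and they number 607 of the 2931 cells of the series. Each treatment had 1 female and 1 male mouse. The normal air mice gave 206 cells (female) and 116 cells (male), and the hyperoxia mice 153 (female) and 132 (male). Car4- capillaries of P1 and P21 mice in normal air, again 1 female and 1 male mouse each, were fitted together with them, which gives 8 mice for the estimate of the spread. The oxygen level, the length of exposure and the strain were not given in the sources used here, and it is not stated if each named mouse is 1 animal or several pooled, so n counts named mice and the p-values measure the spread between these samples.

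The gas exchange surface of the lung is lined by 2 kinds of capillary endothelial cell. Car4- cells, also called general capillary cells, form the branching network and can divide and renew it, while Car4+ cells, also called aerocytes, are large cells that lie against the alveolar epithelium and express carbonic anhydrase 4. In newborn mice the alveoli and their capillaries are still being built, and breathing raised oxygen at this age slows that growth and is used as a model of the lung disease of preterm infants. Oxygen in excess gives reactive oxygen species, which can damage DNA. A main response to DNA damage is stabilisation of the transcription factor p53, which turns on genes of cell cycle arrest, cell death, repair and its own feedback.

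Each cell was a plate-based library cut with the Tn5 transposase, and reads were counted per gene without molecular identifiers. The summed Car4- cells held 184368727 (female) and 29242793 reads (male) in normal air, and 95327017 and 97426617 in hyperoxia. Levels below are the reads of a gene per 1000000 reads of that sum (CPM). They compare mice for 1 gene, not genes with each other, since they are not corrected for gene length. The male normal air library was the shallowest, with a median of 188389 reads per cell against 860010, 523823 and 681322 in the female normal air, female hyperoxia and male hyperoxia mice. With each cell thinned to 50000 reads, the medians were 2032 and 3236 detected genes (female and male, normal air) and 3127 and 2298 (female and male, hyperoxia), so the treatments overlapped but single mice differed. Cells of the CD31 sort gate were in 1 run for both male mice, and in separate runs for the 2 female mice. For the female pair the run and the treatment therefore cannot be told apart, and the male pair is given beside the main results as the log2(CPM + 1) difference within its run. A few cells came from another gate; in the male normal air mouse these 5 cells held 21.8% of the Car4- reads.

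The labels were set against marker genes. The summed level of a list of 12 general capillary markers was 10845 to 13112.5 CPM in the Car4- cells of the 4 mice. In their Car4+ cells it was 2986 to 4226 CPM. Of this list Gpihbp1, the capillary anchor of lipoprotein lipase, was at 1481 to 2155 against 156 to 333 CPM. Not every member separated the classes: Tspan7 was at 1794 to 2683 against 1910 to 3012 CPM, and Sema3c at 416 to 743 against 125 to 535 CPM. Car4 was at 175 to 439 CPM in the Car4- cells and at 3907 to 9358 CPM in the Car4+ cells. The endothelial genes Pecam1 and Cdh5 were at 967 to 1699 and at 569 to 1151 CPM in the Car4- cells. The epithelial Cdh1 and the leukocyte gene Ptprc were each below 1 CPM in all 4 mice. The summed level of a list of 13 epithelial markers was 50.3 and 110 CPM in normal air against 134 and 211 CPM in hyperoxia, of which Sftpc made 21.8 and 39.7 against 42.3 and 112 CPM, and that of 8 red cell and platelet markers was 15.3 and 128 against 27.0 and 147 CPM. The summed levels of mesenchymal markers (22.9 and 29.9 against 48.1 and 25.2 CPM) and immune markers (12.2 and 39.4 against 8.47 and 23.4 CPM) overlapped between treatments. The epithelial markers, as a sum, thus stood higher in the hyperoxia libraries, and their part in the results below was not tested. The Late label was given to 44 and 2 of the Car4- cells in normal air (female and male) and to 2 and 6 in hyperoxia. Among CD31-gate cells this was 20.8% (95% Clopper-Pearson interval 15.4 to 27.2) in the female and 0.901% (0.0228 to 4.92) in the male normal air mouse, against 1.34% (0.163 to 4.76) and 4.55% (1.69 to 9.63) in hyperoxia. The Car4- cells made up 61.6% (56.0 to 66.9) and 55.5% (48.3 to 62.5) of the CD31-gate cells in normal air and 56.2% (50.02 to 62.3) and 52.0% (45.6 to 58.3) in hyperoxia, with no separation beyond these counting intervals. An exact permutation test of 2 mice against 2 cannot go below p = 0.333, so no test was made of these shares.

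Hyperoxia was compared with normal air to ask which genes of these capillaries differ. Serpine2 rose and H2-Q7 fell, and these were the 2 genes of 14660 tested that passed an adjusted p of 0.05 in edgeR's quasi-likelihood test, 1 in each direction (0.00682% each). A further set had an unadjusted p under 0.05, 387 genes higher (2.64%) and 422 lower (2.88%). The CPM of both hyperoxia mice lay above those of both normal air mice for 2659 genes (18.1%) and below them for 2292 (15.6%), which are the shares against which the lists below are read. DESeq2, run on the same sums, called 238 genes, 132 higher and 106 lower. Without either hyperoxia mouse, or without the female normal air mouse, edgeR called 0 genes, with 810, 478 and 610 genes at an unadjusted p under 0.05. Without either P1 mouse it called 14.

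Serpine2 encodes protease nexin-1, a secreted inhibitor of thrombin and of plasminogen activators, and lies on chromosome 1 (79794197 to 79861180, GRCm38). It was at 32.4 and 27.3 CPM in the female and male normal air mice and at 358 and 326 CPM in the hyperoxia mice. Both hyperoxia mice stood far above both normal air mice, and also above the P1 mice (12.9 and 11.4 CPM) and the P21 mice (17.2 and 8.74 CPM). The fitted log2 change was 3.49 (SE 0.42, 11.2-fold, edgeR adjusted p = 0.0119), and the male pair of 1 run differed by 4.15. Without the male normal air mouse Serpine2 no longer passed the test (log2 change 3.32, adjusted p = 0.336). After thinning, 6.80% and 10.6% of normal air cells had a Serpine2 read (95% Clopper-Pearson intervals 3.77 to 11.1 and 5.61 to 17.8) against 54.2% and 43.2% of hyperoxia cells (46.0 to 62.3 and 34.6 to 52.1). Without thinning the shares were 8.25% and 12.9% against 55.6% and 44.7%. Such intervals cover counting error only and are too narrow where PCR made several reads from 1 molecule. The rise was therefore seen in the share of cells with a read, and about as many hyperoxia cells had none. A cell without a read may still hold the transcript.

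H2-Q7 encodes Qa-2, a nonclassical MHC class I chain, and lies on chromosome 17 (35439155 to 35443773, GRCm38). It was at 169 and 151 CPM in normal air and at 17.2 and 10.01 CPM in hyperoxia. The hyperoxia mice were also below the P1 mice (38.5 and 33.7 CPM) and far below the P21 mice (269 and 244 CPM). The log2 change was -3.59 (SE 0.41, 12.1-fold lower, edgeR adjusted p = 0.0119), and the male pair differed by -4.04. A thinned read was found in 36.9% and 49.6% of normal air cells (30.3 to 43.9 and 40.02 to 59.1) and in 8.50% and 3.03% of hyperoxia cells (4.60 to 14.1 and 0.832 to 7.58). Before thinning these were 44.2% and 55.2% against 10.5% and 5.30%. H2-Q7 belongs to a family of near-identical genes: 26.4% of the 50-base windows of its GENCODE M21 transcripts also occur in another gene, most often H2-Q10, so how reads were shared among the copies can affect its level.

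**Figure D1:**
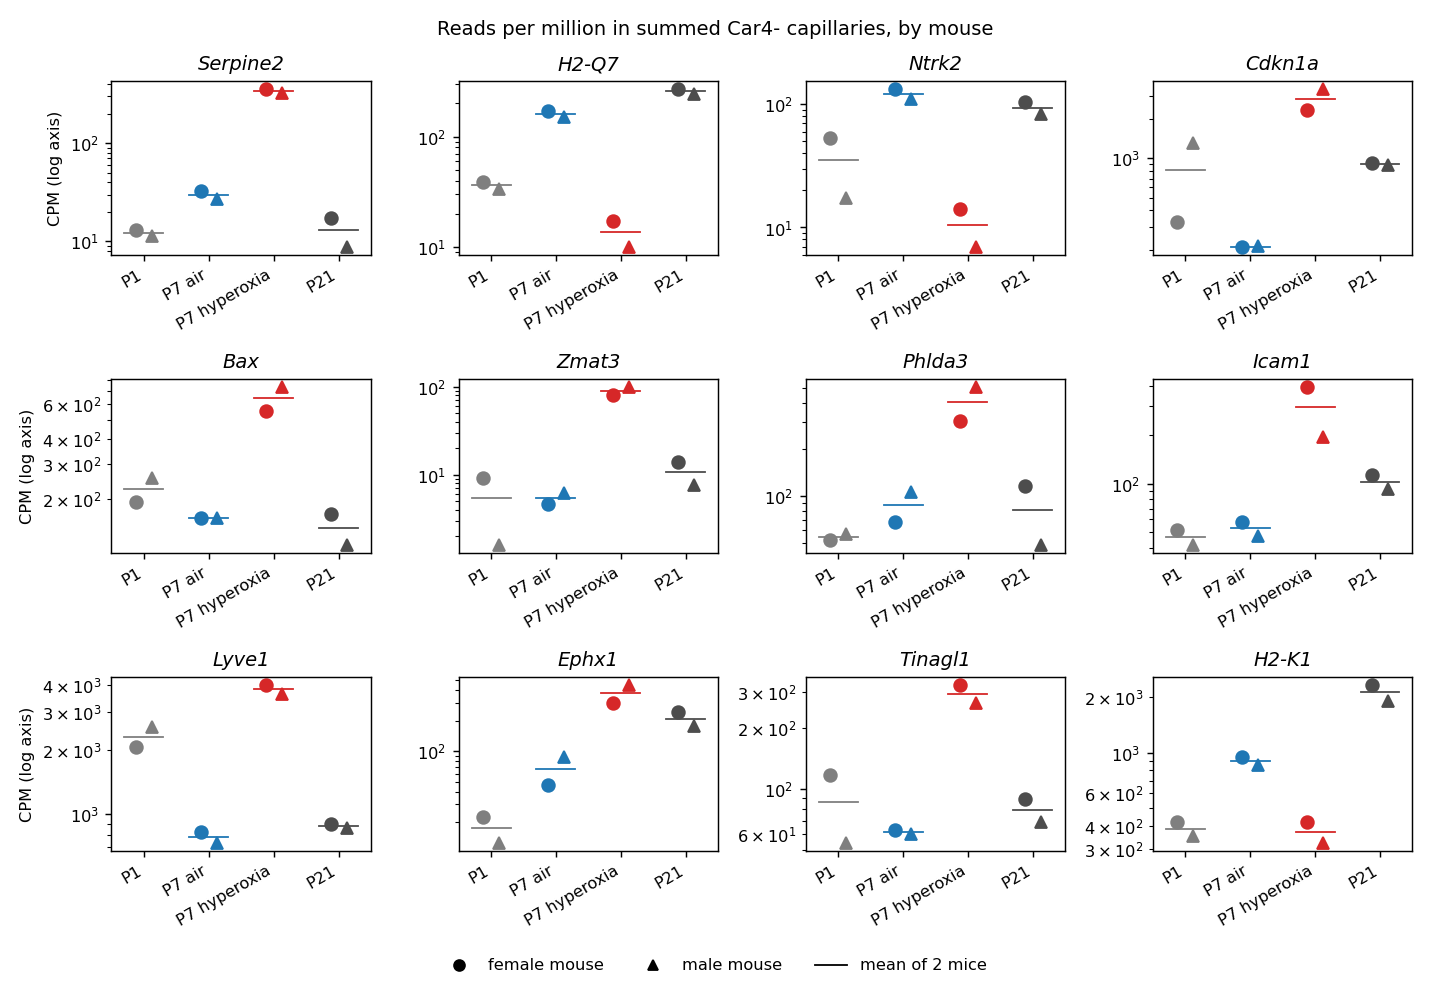
CPM of 12 genes in the summed Car4- capillaries of each of 8 mice, on log axes whose ranges differ between panels; circles are female mice, triangles male mice and lines the mean of 2 mice. The hyperoxia mice lie above both normal air mice for 9 of these genes and below them for H2-Q7, Ntrk2 and H2-K1.

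Among the 22 gene lists in the plot of list members, the p53 target genes had the highest median change; of the marker lists of other cell types, which were not plotted, that of 8 red cell and platelet genes had a higher one (1.52; 0.27 in the male pair). Of 30 listed genes 29 were tested, 24 of them higher and 5 lower in hyperoxia, with a median log2 change of 1.00 against -0.01 over all genes tested. Both hyperoxia mice stood above both normal air mice for 20 (18.1% of all genes) and below them for 3 (15.6%). An unadjusted p under 0.05 was found for 13 in the higher direction (2.64% of all genes) and 1 in the lower (2.88%). None passed the adjusted threshold in the edgeR fit of 8 mice, while DESeq2 called 10 of them and 238 over all genes. In other edgeR fits 3 of them were called with the 4 P7 mice alone (10 over all genes) and 2 with thinned cells (7). With CD31-gate cells alone 0 of them were called (5 over all genes). Their summed level was 2772 and 2597 CPM in normal air and 7174 and 7869 CPM in hyperoxia, against 3718 and 3833 CPM at P1 and 4713 and 4615 CPM at P21. In the male pair of 1 run 24 of the 29 were higher, with a median of 0.82.

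Among the effectors of arrest and death, Cdkn1a, the inhibitor of cyclin-dependent kinases that p53 uses to stop the cell cycle, was at 209 and 212 CPM in normal air and at 2339 and 3403 CPM in hyperoxia. The normal air mice were nearly equal, and the hyperoxia mice were both above the P1 mice (326 and 1317 CPM) and the P21 mice (930.0 and 883 CPM). The log2 change was 3.75 (SE 0.63, edgeR adjusted p = 0.128), and the male pair differed by 3.65. A thinned Cdkn1a read was present in 29.1% and 42.5% of normal air cells (intervals 23.02 to 35.8 and 33.2 to 52.1) against 90.8% and 89.4% of hyperoxia cells (85.1 to 94.9 and 82.8 to 94.1). Among cells with a read, the median thinned level was 330.0 and 380.0 CPM in normal air and 2100.0 and 3340.0 CPM in hyperoxia. Nearly every hyperoxia cell thus had Cdkn1a reads. The share of cells with a read also depends on the level of the gene, so it is not compared with that of Serpine2. Bax, which opens pores in the outer mitochondrial membrane, was at 159 and 160.0 CPM against 557 and 736 CPM (log2 change 2.00, SE 0.38, edgeR adjusted p = 0.228). Phlda3, which blocks AKT at the membrane, was at 67.9 and 106 CPM against 304 and 505 CPM (2.20, SE 0.46, adjusted p = 0.356). Zmat3, an RNA-binding protein, was at 4.60 and 6.26 CPM against 80.7 and 99.5 CPM (4.03, SE 0.78, adjusted p = 0.228), and its thinned reads were in 3.40% and 7.96% of normal air cells (intervals 1.38 to 6.88 and 3.71 to 14.6) against 45.1% and 34.8% of hyperoxia cells (37.1 to 53.3 and 26.8 to 43.6).

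The remaining members ran from receptors to repair enzymes. Sesn2, an inhibitor of mTORC1 signalling, was at 2.31 and 1.81 CPM in normal air and 25.2 and 32.4 CPM in hyperoxia. Eda2r, a receptor of the TNF family, was at 2.16 and 0 CPM against 34.4 and 46.6 CPM. Aen, a nuclease of apoptotic cells, was at 17.3 and 25.3 CPM against 119 and 119 CPM. In each of these the treatments did not overlap. Ccng1 (cyclin G1) was at 29.1 and 17.2 CPM against 119 and 65.0 CPM, and Trp53inp1 at 18.3 and 7.45 CPM against 59.2 and 56.4 CPM. Dcxr, a carbonyl reductase, was at 9.54 and 13.6 CPM against 110.4 and 90.0 CPM. The death receptor genes Tnfrsf10b (log2 change 1.24, SE 0.50) and Fas (0.55, SE 0.36) were higher in both hyperoxia mice by smaller amounts. The BH3-only genes Bbc3 (-0.26, SE 0.58) and Pmaip1 (0.30, SE 1.36), which encode PUMA and NOXA, overlapped between treatments, and so did Mdm2, the ubiquitin ligase that removes p53 (84.6 and 31.6 against 110 and 69.4 CPM; 0.58, SE 0.51). Sesn1 and Gadd45a were lower in both hyperoxia mice. Sesn1 was at 56.4 and 54.7 against 16.4 and 9.62 CPM, and Gadd45a at 14.9 and 20.8 against 8.77 and 5.75 CPM. In CD31-gate cells alone the male normal air mouse was at 25.5 CPM for Sesn1, and the male pair differed by -1.32. The members thus lay on both sides of 0, as the plot of p53 targets shows.

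**Figure D2:**
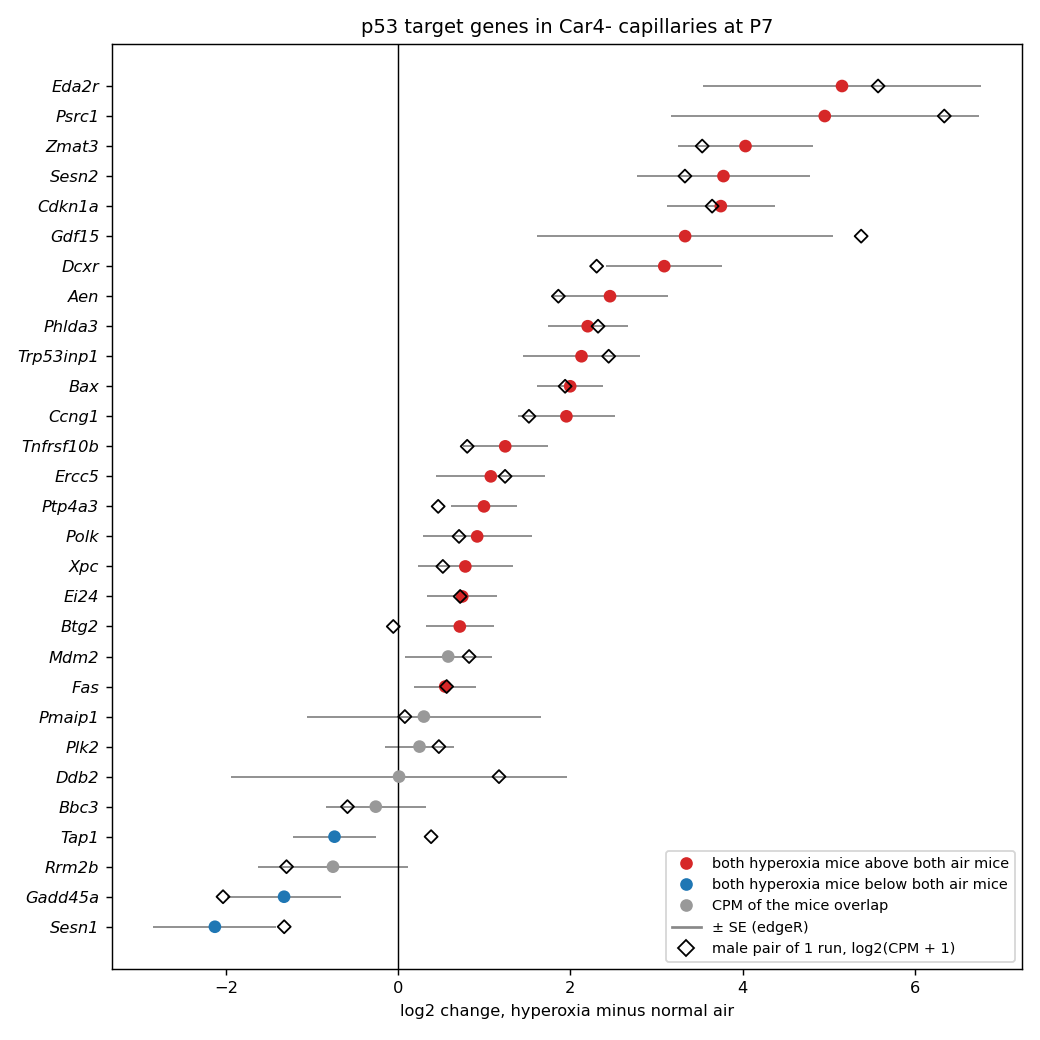
Log2 change of the 29 tested p53 target genes, hyperoxia minus normal air, with bars of ± 1 SE from the edgeR fit over 8 mice; open diamonds give the male pair of 1 run. Red points (20 genes) have both hyperoxia mice above both normal air mice, blue points (3 genes) below.

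The promoters of these genes were searched for the p53 half-site consensus, the palindromic motif of 10 bases that p53 binds as pairs, which reads the same on both strands. Windows ran from 250 bases before to 50 bases after each gene's start (RefSeq, GRCm38.p6). A half-site was present in 2745 of 32851 windows (8.36%), in 8.42% of the tested genes with a window (921 of 10936), and in 9 of the 21 tested p53 targets with a window (42.9%). A pair of half-sites with at most 13 bases between them was present in 24 windows (0.0731%), of which 1 in the p53 list, Cdkn1a. The pieces below show the match and the bases around it for 5 members, 4 whose treatments did not overlap (Cdkn1a, Bax, Ccng1, Aen) and Mdm2, whose treatments did. Each lies before the RefSeq start of the window it came from and is written 5′ to 3′ on the gene's strand, with the half-site in capitals. Aen has more than 1 RefSeq start, and its half-site lies before one of them and after another.
Cdkn1a, chr17:29090866-29090977, + strand: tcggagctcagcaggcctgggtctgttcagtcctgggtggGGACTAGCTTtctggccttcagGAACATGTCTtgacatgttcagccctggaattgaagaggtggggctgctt
Bax, chr7:45467050-45467139, - strand: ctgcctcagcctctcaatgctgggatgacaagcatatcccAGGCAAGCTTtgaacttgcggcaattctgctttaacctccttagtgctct
Ccng1, chr11:40755422-40755511, - strand: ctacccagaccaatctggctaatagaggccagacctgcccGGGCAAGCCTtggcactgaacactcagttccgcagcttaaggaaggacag
Aen, chr7:78895897-78895986, + strand: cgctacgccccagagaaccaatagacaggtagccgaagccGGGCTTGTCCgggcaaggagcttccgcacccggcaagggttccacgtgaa
Mdm2, chr10:117710895-117710984, - strand: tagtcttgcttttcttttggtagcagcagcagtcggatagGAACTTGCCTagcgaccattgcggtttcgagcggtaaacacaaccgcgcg
A match is a description of these letters, and only exact matches are in capitals. In Cdkn1a the bases tgacatgttc, right after the second half-site, differ from the consensus at their first base only and are not marked. Which of these stretches p53 binds was not tested. Sesn1 and Gadd45a, lower in hyperoxia, also had a half-site in the window.

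Genes of DNA replication and mitosis were mixed in direction, and the medians of the male and female pairs differed in sign. All 24 listed genes were tested, 10 higher and 14 lower, with a median log2 change of -0.08. The male pair of 1 run gave a median of -0.35 (6 of 24 higher) and the female pair 0.13. Without overlap 3 were above and 1 below (18.1% and 15.6% of all genes), and none had an unadjusted p under 0.05. Mki67 was at 13.96 and 10.3 CPM in normal air and 15.6 and 12.7 CPM in hyperoxia. Cycling cells carry a label of their own in this series, so most of them are outside the Car4- classes. Among regulators of the G1 phase, the cyclins Ccnd1 and Ccnd2 stood higher in both hyperoxia mice: Ccnd2 at 310.0 and 354 against 931 and 1074 CPM (log2 change 1.57, SE 0.38), and Ccnd1 at 456 and 458 against 1310.4 and 1098 CPM (1.37, SE 0.42). Cdkn1c, an imprinted CDK inhibitor, was at 42.4 and 26.02 against 7.10 and 14.8 CPM (-1.67, SE 0.62). Over the 13 tested G1 genes 6 were higher and 7 lower, with a median of 0.00 (-0.30 in the male and 0.73 in the female pair). In the BCL2 family (10 tested, 6 higher, 4 lower, median 0.31) the inhibitors of cell death Bcl2 and Bcl2l1 were higher in both hyperoxia mice: Bcl2 at 24.1 and 28.3 against 60.3 and 63.3 CPM (1.21, SE 0.46), and Bcl2l1 at 158 and 232 against 371 and 292 CPM (0.74, SE 0.35). The activator Bcl2l11, which encodes BIM, was lower in both, at 50.2 and 70.4 against 28.0 and 16.5 CPM (-1.47, SE 0.58). None of these 3 lists had a member past the adjusted threshold.

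The lists of genes linked to oxygen itself had medians near that of all genes, which holds for the members chosen here. Ephx1, a detoxification gene described below, was higher in both hyperoxia mice (2.46, SE 0.43) and was in none of these lists. Of 18 targets of NRF2, the regulator of antioxidant and detoxification genes, 10 were higher and 8 lower (median log2 change 0.04). Without overlap 2 were above and 2 below (18.1% and 15.6% of all genes), and none had an unadjusted p under 0.05. Hmox1 was at 47.6 and 34.5 against 87.1 and 34.2 CPM, and Gclm at 60.1 and 73.9 against 47.5 and 38.5 CPM, with Nqo1 low in all 4 mice at 0.513 to 4.73 CPM. Of 23 superoxide, peroxide and thioredoxin enzymes 13 were higher and 10 lower (median 0.03). Gpx3, a secreted glutathione peroxidase, was at 14.5 and 17.4 against 71.4 and 81.3 CPM (2.23, SE 0.64), Prdx3 of mitochondria at 86.5 and 103 against 189 and 157 CPM, and Sod2 at 156 and 131 against 113 and 116 CPM. Of 21 hypoxia targets 8 were higher and 13 lower (median -0.12). Among them Ankrd37 was at 40.4 and 54.2 against 6.28 and 15.2 CPM (-2.15, SE 0.77; -0.41 in the male pair), while Slc2a1, the glucose transporter GLUT1, was at 7.47 and 2.15 against 23.5 and 17.8 CPM. Stress genes of the unfolded protein and integrated stress responses had a median of -0.04 over 17 genes, 7 higher and 10 lower. The direction of the medians of the NRF2, antioxidant, hypoxia and stress lists turned under other settings, in 3, 3, 2 and 6 of 18.

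Most MHC class I genes were lower in hyperoxia. Of 17 tested, 5 were higher and 12 lower (median -0.26), 1 above and 6 below without overlap (18.1% and 15.6% of all genes). An unadjusted p under 0.05 was found for 3 lower ones (2.88% of all genes). The classical chain H2-K1 was at 940.4 and 858 CPM in normal air and 419 and 321 CPM in hyperoxia (log2 change -1.31, SE 0.35, edgeR adjusted p = 0.75). The hyperoxia levels of H2-K1 were near those at P1 (418 and 352 CPM), and the P21 mice were highest at 2339 and 1913 CPM. H2-D1 was at 2014 and 2246 against 1173 and 1421 CPM (-0.74, SE 0.38), and H2-Q6, the neighbour of H2-Q7, at 74.0 and 60.6 against 13.4 and 6.21 CPM (-2.82, SE 1.10). The light chain gene B2m (1421 and 1451 against 1196 and 1949.9 CPM) overlapped between treatments. The peptide loading genes were on both sides of 0. The transporter gene Tap1 was at 92.2 and 51.7 against 40.9 and 47.2 CPM (-0.74, SE 0.48), lower in both hyperoxia mice, but higher in the CD31-gate cells of the male pair of 1 run (0.38). Tapbp (-0.31, SE 0.37) and Psmb10 (-0.40, SE 0.35) were also lower in both, and Tap2, the partner of Tap1, was higher in both (0.63, SE 0.45). The H2 genes share reads to some extent, since 32% of the windows of H2-Q6, 9.63% of H2-K1 and 12.8% of H2-D1 occur in another gene.

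Interferon-stimulated genes, which often move with MHC class I, stood the other way. Of 19 tested, 15 were higher and 4 lower (median 0.41), with 8 above and 0 below without overlap (18.1% and 15.6% of all genes). Bst2, which tethers viruses to the membrane, was at 171 and 211 against 329 and 579 CPM (1.23, SE 0.41), and Ifitm3 at 788 and 698 against 945 and 1730.1 CPM (0.83, SE 0.46). Irf1, the interferon regulatory factor that acts on MHC class I genes, was lower in both hyperoxia mice, at 249 and 403 against 167 and 155 CPM (-1.04, SE 0.41). The female pair gave a median of -0.27 and the male pair 1.05 for the interferon list, so its sign rested on the male mice. Of 17 genes of adhesion and inflammation 10 were higher and 7 lower (median 0.15). Icam1, the endothelial ligand of leukocyte integrins, was at 58.1 and 47.7 against 396 and 195 CPM (2.44, SE 0.41, edgeR adjusted p = 0.128; 1.66 in the male pair), and a thinned read was in 12.1% and 29.2% of normal air cells against 60.8% and 45.5% of hyperoxia cells. Icam2 overlapped between treatments (1114 and 1384 against 1239.8 and 1579.6 CPM). Cxcl12, the chemokine that binds CXCR4, was at 638 and 517 against 151 and 198 CPM (-1.75, SE 0.36, adjusted p = 0.35). For Cxcl12 the male difference came from cells outside the CD31 gate: in CD31-gate cells alone the male mice were at 222 and 198 CPM, a difference of -0.16, and the female mice at 586 and 158 CPM.

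Matrix genes were mixed in direction, with 17 of 26 higher and 9 lower (median 0.38). Without overlap 11 were above and 6 below (18.1% and 15.6% of all genes). Some laminin and nidogen genes of the basement membrane were higher in both hyperoxia mice. Lamb1 was at 43.8 and 14.3 against 135 and 151 CPM (2.26, SE 0.55). Lama4 was at 30.4 and 52.9 against 74.5 and 120.0 CPM (1.21, SE 0.49), with the male normal air mouse at 17.1 CPM in CD31-gate cells alone. Nid1 was at 303 and 153 against 349 and 558 CPM (0.96, SE 0.42). The type IV collagens Col4a1 (0.44, SE 0.36) and Col4a2 (0.69, SE 0.40) were higher by less. Some other secreted matrix genes were lower in both hyperoxia mice. Sparcl1 was at 795 and 415 against 173 and 106 CPM (-2.15, SE 0.42, edgeR adjusted p = 0.228), and the fibulins Fbln2 at 178 and 199 against 40.04 and 62.8 CPM (-1.90, SE 0.42) and Fbln5 at 239 and 149.7 against 110.5 and 43.6 CPM (-1.38, SE 0.73). The interstitial collagen gene Col5a1 was higher in both, at 4.30 and 10.2 against 16.4 and 12.02 CPM (0.95, SE 1.04). Of 17 tested protease and coagulation genes 12 were higher and 5 lower (median 0.24, and -0.04 in the male pair). Without overlap 7 were above, Serpine2 among them, and 1 below (18.1% and 15.6% of all genes). Tfpi, which inhibits tissue factor, was at 144 and 78.8 against 177 and 221 CPM (0.81, SE 0.44).

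Growth factor genes of vessels included ligands and receptors on both sides. Apln, a peptide ligand made by growing vessel tips and by aerocytes, was at 69.1 and 75.9 against 375 and 214 CPM (1.99, SE 0.49, edgeR adjusted p = 0.596; 1.90 in the male pair). Its receptor gene Aplnr, a marker of Car4- capillaries, was at 744 and 326 against 264 and 245 CPM (-1.11, SE 0.41). Kdr, the main VEGF receptor, was at 475 and 523 against 767 and 860.5 CPM (0.68, SE 0.34), and the Notch target Hes1 at 145 and 244 against 351 and 521 CPM (1.15, SE 0.38). Over 23 tested genes of the VEGF, angiopoietin, apelin and Notch systems 13 were higher and 10 lower (median 0.20). In the TGF-beta and BMP list (22 tested, 12 higher, 10 lower, median 0.13) the ligand Tgfb2 was at 35.9 and 30.8 against 77.4 and 77.6 CPM (1.19, SE 0.51), and its receptor Tgfbr2 at 196 and 113 against 79.0 and 55.7 CPM (-1.23, SE 0.48). The BMP target Id1 was at 329 and 332 against 474 and 711 CPM (0.82, SE 0.41). The ligand genes Apln and Tgfb2 were thus higher and the receptor genes Aplnr and Tgfbr2 lower in both hyperoxia mice, none of them past the adjusted threshold. Other receptor genes of the TGF-beta and BMP family went the other way. Eng (0.55, SE 0.35) and Acvrl1 (0.25, SE 0.39) were higher in both hyperoxia mice.

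Identity genes of the Car4- class were on both sides of 0. Of 16 general capillary markers 8 were higher and 8 lower (median -0.08). There were 3 above and 5 below without overlap (18.1% and 15.6% of all genes). An unadjusted p under 0.05 was found for 1 higher (2.64% of all genes) and 2 lower (2.88%). The higher one was Plvap, of the diaphragms of endothelial fenestrae, at 1128 and 1116 against 1879.8 and 2272 CPM (0.86, SE 0.38). The lower ones were Aplnr and Cxcl12, and Cxcl12 differed by only -0.16 in the CD31-gate cells of the male pair. Of 16 aerocyte genes 12 were higher and 4 lower (median 0.36), but the male pair gave a median of -0.13. Without overlap 5 were above and 1 below (18.1% and 15.6% of all genes). Besides Apln and Kdr, the aerocyte gene Cyp4b1, a cytochrome P450, was at 518 and 471 against 1821 and 1610.4 CPM (1.76, SE 0.39, edgeR adjusted p = 0.391; 1.70 in the male pair). Of the defining aerocyte genes, Car4 was at 175 and 405 against 269 and 439 CPM, Ednrb at 92.2 and 209 against 105 and 138 CPM, both of which overlapped between treatments, and Emp2 was lower in both hyperoxia mice (398 and 522 against 152 and 293 CPM). In 19 genes of vessel tone 6 were higher and 13 lower (median -0.34). Edn1, the vasoconstrictor endothelin-1, was at 106 and 249.98 against 326 and 331 CPM (0.87, SE 0.47). In CD31-gate cells alone the male normal air mouse was at 147 CPM for Edn1. Ramp3, a subunit of adrenomedullin receptors, was at 84.9 and 146 against 42.9 and 63.9 CPM (-1.13, SE 0.51). Nos3 (endothelial nitric oxide synthase) was at 59.1 and 43.7 against 48.1 and 27.8 CPM, which overlap.

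Imprinted genes of early growth had the lowest median, -1.12 over 13 tested genes, 3 higher and 10 lower. Without overlap 2 were above and 6 below (18.1% and 15.6% of all genes). At an unadjusted p under 0.05 there were 1 higher and 4 lower (2.64% and 2.88% of all genes). Mest was at 1118 and 526 against 404 and 178 CPM (-1.54, SE 0.48), the noncoding H19 at 77.4 and 54.6 against 15.3 and 7.63 CPM (-2.56, SE 1.01), and Igf2, a fetal growth factor, at 26.2 and 10.02 against 0.514 and 0.287 CPM (-5.54, SE 1.64). Igf2r, which clears that factor, was higher, at 91.4 and 125 against 247 and 447 CPM (1.66, SE 0.43). The P21 mice were low for Mest (51.5 and 35.5 CPM) and H19 (6.56 and 0.292 CPM). The P1 mice were at 886 and 494 CPM for Mest. For H19 they were at 31.0 and 12.9 CPM, below the P7 normal air mice. The list median was -0.28 in the male pair, and Meg3, Peg10 and Zim1, at 4.04 CPM or less, were among its lower members. Immediate early and heat shock genes, which tissue dissociation can induce, had medians of -0.03 (8 of 19 higher) and 0.01 (7 of 14 higher). For the immediate early list the male pair gave a median of -1.01 (5 of 19 higher) and the female pair 0.39, so the pairs differed in sign. Markers of all endothelium had a median of 0.13 (7 of 13 higher). The medians of the cell cycle, G1, inflammation, protease, TGF-beta, general capillary, aerocyte, immediate early, heat shock and endothelial lists each changed sign in 1 to 9 of 18 other settings.

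**Figure D3:**
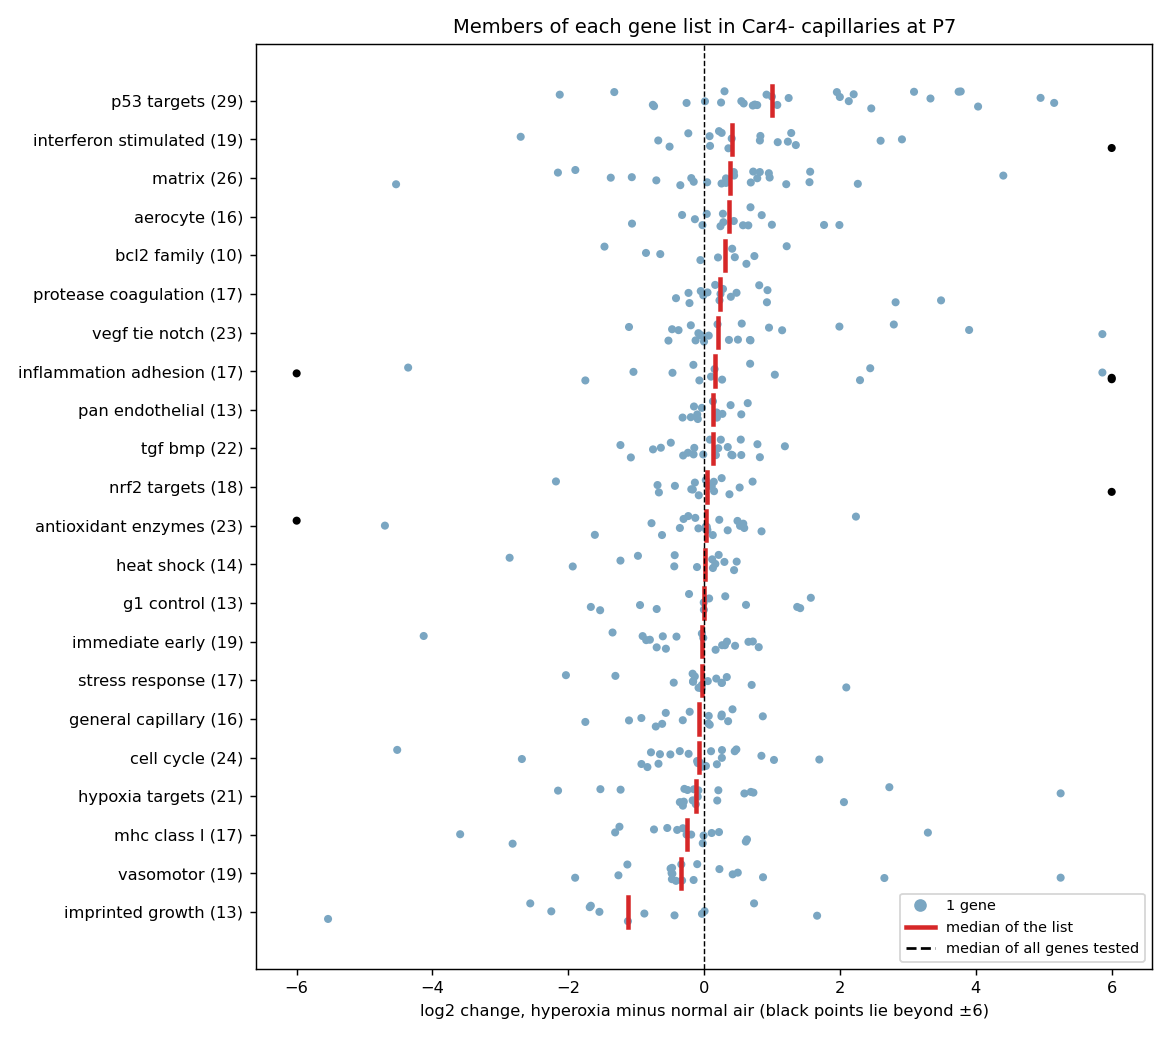
Log2 change of every tested member of 22 gene lists, hyperoxia minus normal air; each point is 1 gene, red bars are list medians and the dashed line is the median of all genes tested (-0.01). The p53 targets have the highest median (1.00) and the imprinted growth genes the lowest (-1.12); points beyond ±6 are drawn at the edge in black.

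Genes outside the lists filled the rest of the leading ranks. Ntrk2, which encodes the neurotrophin receptor TrkB, was at 133 and 111 CPM in normal air and 14.1 and 6.93 CPM in hyperoxia (-3.58, SE 0.55, edgeR adjusted p = 0.0718; -4.17 in the male pair), and it passed the threshold in 8 of 17 other fits. The P1 mice were at 53.01 and 17.4 CPM and the P21 mice at 104 and 82.8 CPM, so the hyperoxia mice were the lowest of the 8. Lyve1, a receptor of hyaluronan, was at 825 and 732 against 4023 and 3633 CPM (2.27, SE 0.39, adjusted p = 0.132), with P1 mice between them at 2056 and 2546 CPM. Ephx1, the microsomal epoxide hydrolase, was at 47.1 and 87.2 against 298 and 449 CPM (2.46, SE 0.43, adjusted p = 0.132). The secreted matrix proteins Tinagl1 (63.1 and 60.3 against 326 and 265 CPM; 2.23, SE 0.39) and Mmrn2 (151 and 133 against 431 and 525 CPM; 1.73, SE 0.37) were higher in both hyperoxia mice. On the lower side were Cdk19, a kinase of the Mediator complex (51.0 and 66.0 against 11.9 and 6.05 CPM; -2.74, SE 0.53), the taurine transporter Slc6a6 (693 and 569 against 260.5 and 139 CPM; -1.70, SE 0.39), the tubulin Tubb2b (77.4 and 117 against 36.3 and 27.3 CPM; -1.64, SE 0.45) and Grrp1 (54.4 and 57.5 against 18.7 and 17.2 CPM; -1.67, SE 0.48). All 20 leading genes, 10 per direction, had the same direction in the male pair as in the whole comparison. That pair is part of the data behind the fit, and the genes were chosen for no overlap between treatments. The shared direction was thus largely set by the choice.

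**Figure D4:**
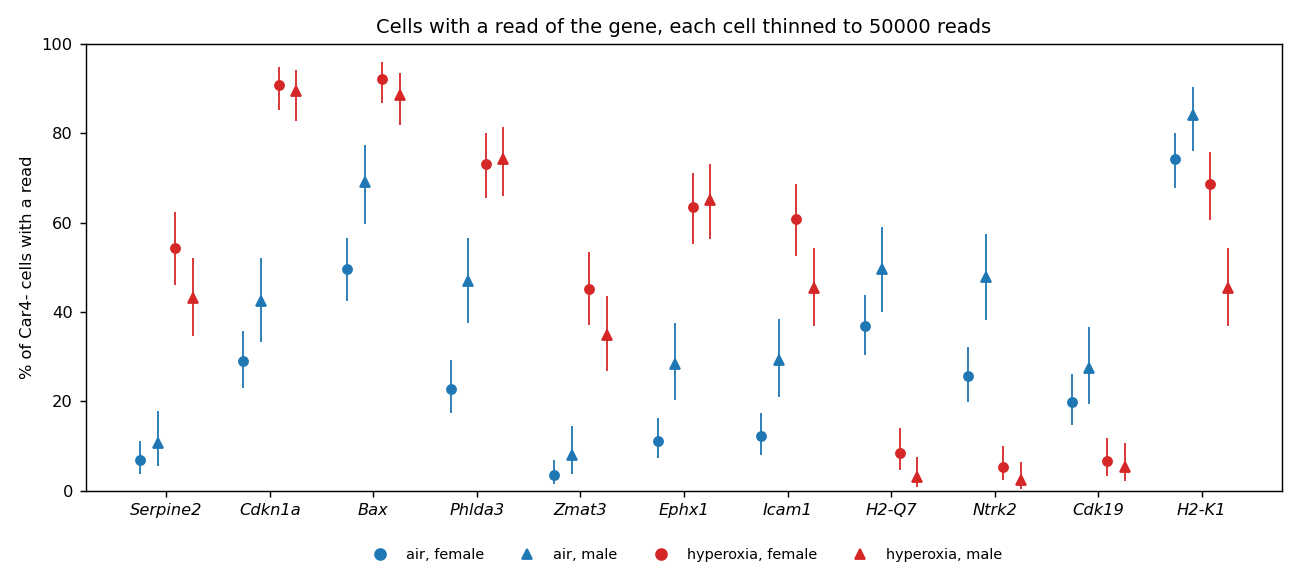
Percent of Car4- cells with at least 1 read of a gene after each cell was thinned to 50000 reads, per mouse, with 95% Clopper-Pearson intervals; blue is normal air, red hyperoxia, circles female and triangles male mice. Cdkn1a was found in 90.8% and 89.4% of hyperoxia cells and Serpine2 in 54.2% and 43.2%, while H2-Q7 was found in 8.50% and 3.03%.

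Within single cells, the number of p53 list genes with a thinned read had a median of 4 and 8 genes in the female and male normal air mice and 12 and 9 in the hyperoxia mice. The male normal air mouse also had the most detected genes per cell in all, so this count moves with the genes detected. The summed level of the list per cell had medians of 2280.0 and 2260.0 CPM in normal air (quartiles 1045 to 3530.0 and 1680.0 to 3060.0) and of 6240.0 and 7280.0 CPM in hyperoxia (4200.0 to 8740.0 and 4435 to 10210.0). The lower quartile of both hyperoxia mice lay above the upper quartile of both normal air mice, so the difference in this sum was spread over most cells. Cdkn1a weighs heavily in it. Over all Car4- cells it made 209 and 212 of 2772 and 2597 CPM in normal air. In hyperoxia it made 2339 and 3403 of 7174 and 7869 CPM. The sum per cell without Cdkn1a was not taken.

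The same contrast was made in 2 other classes of the same mice to see whether the Car4- cells differ in their response. At P7 there were 122 Car4+ cells, 19 to 42 per mouse, and 155 proliferative EC, 30 to 55 per mouse, so both comparators are thinner. In a model that pairs the classes within each mouse, 0 of 14711 genes differed in the hyperoxia effect between Car4- and Car4+ capillaries at an adjusted p under 0.05 in edgeR (0%), and 543 at an unadjusted p under 0.05 (3.69%). Against proliferative EC it was 0 of 14332 (0%) and 203 (1.42%). DESeq2 called 266 and 81 genes for these differences, and edgeR on thinned cells 25 and 2. All 10 leading genes higher in Car4- cells were also higher in Car4+ capillaries and in proliferative EC. Of the 10 lower ones, 9 were also lower in proliferative EC, and 4 of 9 with an estimate in Car4+ capillaries, where Cxcl12, for example, was at 0 to 2.8 CPM in the 4 mice.

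Cdkn1a had a log2 change of 3.75 in Car4- cells, 1.63 (SE 0.65) in Car4+ cells and 1.94 (SE 0.48) in proliferative EC. Its difference from Car4+ cells was 2.12 (SE 0.31, edgeR adjusted p = 0.382), and that from proliferative EC 1.70 (SE 0.82, adjusted p = 1), so a larger change in Car4- cells was not shown. Bax was close in all 3, at 2.00, 1.56 (SE 0.55) and 1.90 (SE 0.44), and so was Phlda3, at 2.20, 1.47 (SE 0.52) and 1.73 (SE 0.78). Serpine2 was at 6.57 (SE 2.60) in Car4+ cells and 1.71 (SE 0.74) in proliferative EC, and H2-Q7 at -4.60 (SE 2.01) and -1.45 (SE 0.50). The wide errors of the Car4+ values leave room for differences of several units on the log2 scale. For the p53 list the median was 1.18 in Car4+ cells (25 of 29 higher) and 1.37 in proliferative EC (24 of 29 higher), beside 1.00 in Car4- cells. The interferon list was at -0.68 (8 of 19 higher) and 0.02 (9 of 17), and the imprinted list at 0.65 (6 of 11) and 0.26 (6 of 11), beside 0.41 and -1.12 in Car4- cells; these differences of lists were not tested.

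**Figure D5:**
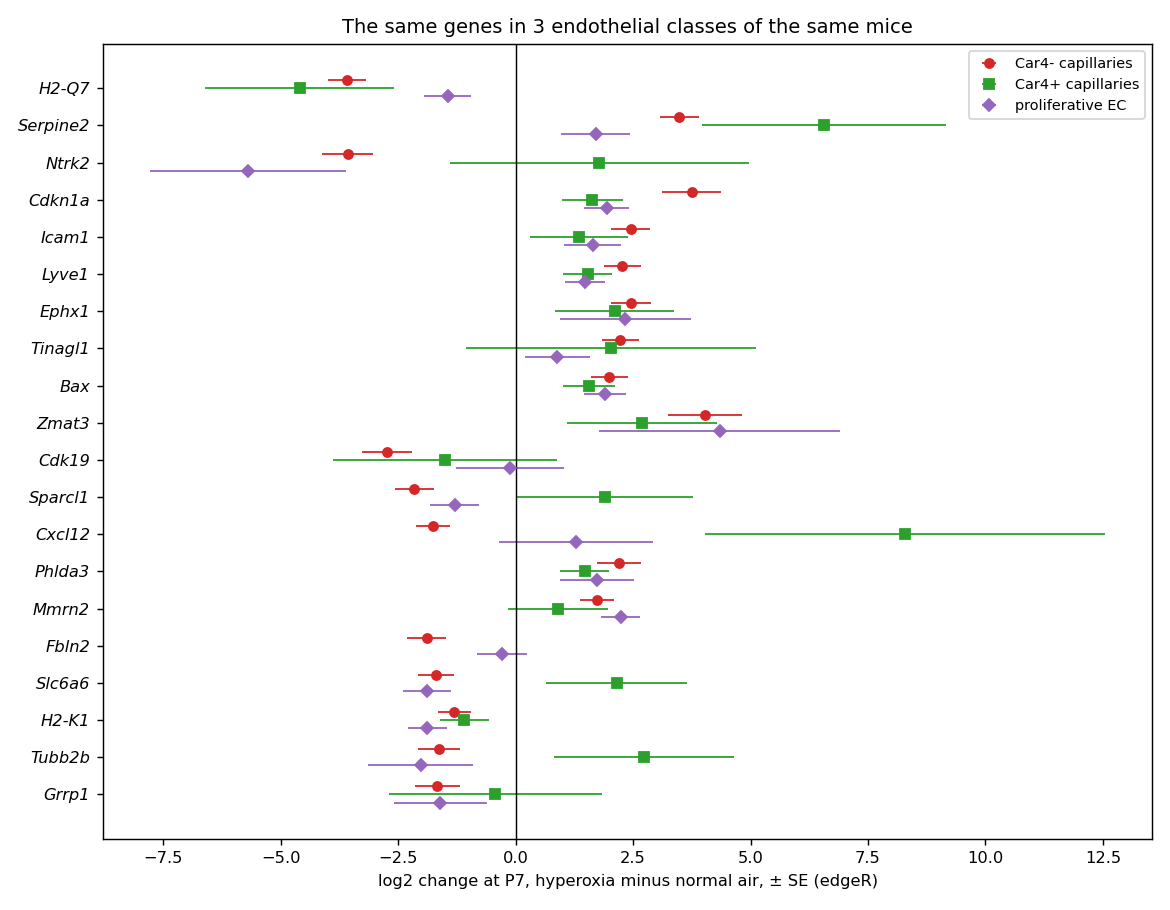
Log2 change at P7, hyperoxia minus normal air, of the 20 leading genes in Car4- capillaries (circles), Car4+ capillaries (squares) and proliferative EC (diamonds) of the same mice, with bars of ± 1 SE from edgeR fits; Fbln2 has no Car4+ estimate. The 10 genes higher in Car4- cells lie right of 0 in all 3 classes.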

How the data were processed

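Single endothelial cells of mouse distal lung were profiled by plate-based Tn5 RNA sequencing. The authors deposited whole-number read counts per gene and cell, not normalized, with a table of cell labels. STAR 2.5.2b, HTSeq 0.10 and the build GRCh38 are named in the submitters' processing notes; that is a human build, and the build behind these mouse counts was not settled here. Gene positions are those of GENCODE M21 on GRCm38 and promoters those of RefSeq on GRCm38.p6. The table has 18072 gene symbols, 103 of them without a read, and no mitochondrial or ribosomal protein symbols, so totals leave these out.

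Counts were summed per mouse over Car4- cells and tested in edgeR 4.0.16 (R 4.3.3; TMM, filterByExpr, quasi-likelihood F test, Benjamini-Hochberg adjustment over all genes tested) with P1, P7 normal, P7 hyperoxia and P21 in 1 model, 2 mice each; hyperoxia minus normal was the contrast. SE is the log2 change over the root of F. Differences between classes were interaction terms with the mouse as a term, over groups whose mice had at least 8 cells. The code was tested on simulated counts. Thinned values use 50000 reads drawn per cell, without the 3 shallower cells of the P7 mice. Alternatives were DESeq2 1.42.0, RLE scaling, no count filter, CD31-gate cells, the Early label, thinned cells, limma 3.58.1 on log2 of mean CPM + 1, the 4 P7 mice alone, sex as a replicate block, each mouse left out, and the male pair of 1 run.

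Named genes are those past the adjusted threshold; up to 10 per direction with the smallest p, no overlap between treatments, a mean of at least 50 CPM and a read in at least 25% of cells of the higher group; up to 4 per direction of each list by the same order; and Serpine2, H2-Q7, Cdkn1a, Bax and Phlda3. Other list members, such as Sesn2, Mdm2, Mki67 or Car4, were added for their roles after values had been seen. The members, lists, tests and rules were chosen with earlier results of these data known.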

Additional observations from a re-analysis of the deposited data

How the results depend on the processing

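The counts of called genes depended on the fit, and the 2 called genes less so. Against 1 higher and 1 lower gene, edgeR called 8 and 2 with the 4 P7 mice alone, 2 and 3 with CD31-gate cells alone, 5 and 2 with thinned cells and 4 and 3 with no filter on low counts; limma called 2 and 1, and DESeq2 132 and 106. RLE scaling and the Early label alone gave 1 and 1. Leaving out 1 mouse at a time gave 0 to 10 higher and 0 to 4 lower genes. Serpine2 and H2-Q7 were called in every fit that kept all P7 mice; without the female or the male hyperoxia mouse or the female normal air mouse neither was called, with log2 changes of 3.43 to 3.66 for Serpine2 and -4.02 to -3.27 for H2-Q7, and without the male normal air mouse only H2-Q7 was. Mice of the same sex share a label across groups and no stated litter. The CD31-gate cells of both male P7 mice and of the male P21 mouse were in 1 run. Those of the female P1 and P21 mice shared another run. Deviations of same-sex mice from the group means correlated by -0.0411 to 0.115, so they were not taken as pairs. With sex as a replicate block 1 gene was higher and 2 were lower, Ntrk2 being the addition. The difference from Car4+ capillaries, 0 genes in edgeR, became 266 in DESeq2, 25 with thinned cells and 3 with no filter, and 0 to 5 with 1 mouse left out; that from proliferative EC, also 0, became 81 in DESeq2 and 2 with thinned cells. The 20 leading genes kept their direction in all 17 other fits. They were chosen for no overlap between the treatments, and these fits reuse the same reads. Their kept direction was thus largely set by the choice and is no separate support. Of 137 genes named by the rule, 14 changed direction somewhere: in the male pair Ackr3 (-0.19), Btg2 (-0.056), Ltbp4 (0.62), Hspa1b (0.086), Tap1 (0.38), Fosl2 (-0.14), Shmt2 (-0.067), Bmf (-0.13) and Top2a (-0.11); with thinned cells Txn2 (-0.0062), Fosl2 (-0.12), Higd1a (-0.071) and Hsph1 (-0.31); with limma Smad1 (0.011), Fosl2 (-0.081), Higd1a (-0.13) and Hsph1 (-0.32); and with 1 mouse left out Il1r1 (-0.0038 without the male and 1.93 without the female normal air mouse). The median change of all genes moved by more than 0.1 only without the female normal air mouse (0.13). The p53, MHC class I, matrix and imprinted medians kept their sign in 18 settings (0.82 to 1.38, -0.53 to -0.25, 0.23 to 0.50 and -1.36 to -0.27). With 2 mice per group, smaller changes could not be told from the spread between mice.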
